A study of Mus musculus with 4 samples.

Results

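A set of 10 genes that encode hepatocyte bile acid exporters or the lipid transporters that work beside them were followed across liver RNA of 4 mouse genotypes. They were taken from the deposited tables by gene symbol, and all 10 of 10 were found among 33639 genes. The 6 canalicular genes were Abcb11, Abcc2, Abcb4, Abcb1a, Atp8b1 and Abcg2, and the 4 basolateral genes were Abcc3, Abcc4, Slc51a and Slc51b. CPM is the count scaled to a library of 1000000, and 8 of the 10 genes averaged 1 CPM or more over the 4 libraries, as did 11743 genes in all. Slc51a and Slc51b did not reach that level and are described from their counts.

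Hepatocytes secrete bile acids across the apical (canalicular) membrane into bile, and can also return them across the basolateral (sinusoidal) membrane to blood. The bile salt export pump Abcb11 carries most of the canalicular flow, while Abcb4 and Atp8b1 keep the canalicular membrane supplied with, and ordered in, phospholipid. The basolateral carriers Abcc3, Abcc4 and the Slc51a-Slc51b heterodimer are known as an overflow route that rises in cholestasis in rodents.

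The libraries came from male, chow-fed mice, 1 liver per genotype, with global deletion of Cyp27a1 (Cyp27a1 KO), global deletion labelled Cyp3a4 (Cyp3a KO), both deletions (double knockout, DKO) and neither (wild type, WT). Cyp3a4 is a human symbol, read here as the mouse Cyp3a genes. The mice had no other treatment. Strain and age were not given in the sources used here. TruSeq RNA libraries held between 49745860 and 50378101 estimated counts. The deleted genes followed the labels. Cyp27a1 stood at 57.6 and 65.3 CPM in Cyp27a1 KO and DKO liver, against 727 CPM in Cyp3a KO liver and 746 CPM in WT. Cyp3a11 stood at 0.160 and 4.76 CPM in Cyp3a KO and DKO liver, against 8742 CPM in WT. In Cyp27a1 KO liver Cyp3a11 was higher than in WT, at 23706 CPM, a ratio of 2.71 (2.70 to 2.72). Hepatocyte markers such as Alb and Cyp2e1 were present in every library, at levels that differed between libraries. Alb had 37953, 40344 and 65721 CPM in Cyp27a1 KO, Cyp3a KO and DKO liver, against 72499 CPM in WT. Cyp2e1 had 6798, 8573 and 4867 CPM in the same knockouts, against 7214 CPM in WT. With 1 library per genotype no difference has a replicate check and no p-value is given, so each statement compares livers of single animals. Intervals in parentheses are exact 95% intervals of a count or of a count ratio and cover counting error only. Calls of higher or lower required a change of 2-fold or more in CPM + 0.5, a mean of 1 CPM or more, and an interval of the count ratio that excluded 1.

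The promoters of 3 genes are shown because the factors known to drive exporters read short elements near such starts. These 3 differed most by ratio between libraries, among exporters with counts in every library, Slc51b on few counts. The RefSeq table (GRCm38.p6) matched 8 of the 10 genes, with 11 windows of 300 bases, each from 250 bases before to 50 after a start. Abcc3 and Atp8b1 had no window, so the motif search does not cover them. Abcc4 (chromosome 14, minus strand) had one window at chr14:118706170-118706469 and an internal one at chr14:118676882-118677181. Abcb1a (chromosome 5, plus strand) had its window at chr5:8566841-8567140, upstream of the gene start at 8660077 in the GENCODE annotation, and Slc51b (chromosome 9, minus strand) at chr9:65422724-65423023. Capitals mark the antioxidant response element core (TGAC, 3 bases of any kind, GC, on either strand) in Abcc4 and near the end of the Abcb1a window, the half-site TGAACT on the reverse strand in Abcb1a, and the half-site AGGTCA in Slc51b.
Abcc4 upstream: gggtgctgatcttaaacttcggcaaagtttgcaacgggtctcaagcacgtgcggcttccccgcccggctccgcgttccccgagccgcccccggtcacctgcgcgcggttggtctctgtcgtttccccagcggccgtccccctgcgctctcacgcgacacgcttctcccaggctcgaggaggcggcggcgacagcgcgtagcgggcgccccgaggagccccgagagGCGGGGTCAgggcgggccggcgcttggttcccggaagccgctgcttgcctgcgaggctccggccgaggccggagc
Abcc4 internal: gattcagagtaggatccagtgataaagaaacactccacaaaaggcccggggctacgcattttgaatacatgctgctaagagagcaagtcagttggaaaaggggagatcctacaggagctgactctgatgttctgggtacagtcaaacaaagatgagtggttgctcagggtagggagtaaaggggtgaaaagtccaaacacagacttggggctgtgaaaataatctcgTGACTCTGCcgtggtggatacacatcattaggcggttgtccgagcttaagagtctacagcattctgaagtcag
Abcb1a: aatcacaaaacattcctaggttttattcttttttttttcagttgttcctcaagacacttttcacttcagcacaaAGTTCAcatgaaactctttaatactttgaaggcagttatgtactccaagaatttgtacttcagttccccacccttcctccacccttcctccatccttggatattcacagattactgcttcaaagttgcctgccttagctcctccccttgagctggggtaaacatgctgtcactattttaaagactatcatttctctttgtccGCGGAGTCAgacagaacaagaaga
Slc51b: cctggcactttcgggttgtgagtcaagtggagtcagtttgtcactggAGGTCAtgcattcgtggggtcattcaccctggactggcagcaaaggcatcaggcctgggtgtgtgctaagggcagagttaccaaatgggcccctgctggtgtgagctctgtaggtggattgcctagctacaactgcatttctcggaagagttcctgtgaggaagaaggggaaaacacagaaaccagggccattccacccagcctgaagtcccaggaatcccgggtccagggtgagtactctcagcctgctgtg

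The antioxidant core lay 25 bases before the upstream start of Abcc4, 23 bases before its internal start and 27 bases after the RefSeq start of Abcb1a. Positions are counted to the first base of the match. The bases that end the Abcb1a and Slc51b windows were not found in GENCODE transcripts of those genes. The antioxidant core was also found 98 bases before the start of Abcc2. Among all 32851 promoter windows 12.4% held this core, so a match is common. The single half-sites AGGTCA and TGAACT, searched after the full elements, stood in 16.3% and 14.0% of windows. Among the exporters, AGGTCA was found in windows of Abcb11, Abcc2, Slc51a and Slc51b and in part of those of Abcg2. TGAACT was found in windows of Abcb11, Abcb1a, Abcb4 and Slc51a. The full bile acid receptor (FXR) element, AGGTCA facing its own reverse complement across 1 base, was in 3 of all 32851 windows and in 0 of the 11 exporter windows. Direct repeats of TGAACT with 3 or 4 bases between, as bound by PXR and CAR, were in 0 and 4 of all windows and in none of the 11. Exact full elements are so rare among all windows that finding none in the 11 carries no information about these genes. Elements that depart from the exact letters were not searched. A match here is a description of letters, not of binding.

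Abcc3 ranked 4 of 10 by deposited level in WT liver and 1 of 10 in each of the 3 knockout livers. Levels of different genes are compared here in TPM, which is per transcript length. Abcc3 (chr11:94343295-94392997, minus strand), which exports glucuronides and bile acids to blood, stood at 199 TPM in Cyp27a1 KO liver, 236 TPM in Cyp3a KO liver and 294 TPM in DKO liver, against 65.2 TPM in WT. Abcb11 (chr2:69238282-69342616, minus strand) stood at 138, 193 and 220 TPM in the same knockouts and at 119 TPM in WT, where it was the highest exporter. Thus Abcc3 was above Abcb11 in every knockout library and below it in WT. Abcb4, Abcc2 and Abcg2 formed a middle group, between 47.3 and 147 TPM over all libraries. The other 5 genes stayed below 8 TPM in every library.

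**Figure D1:**
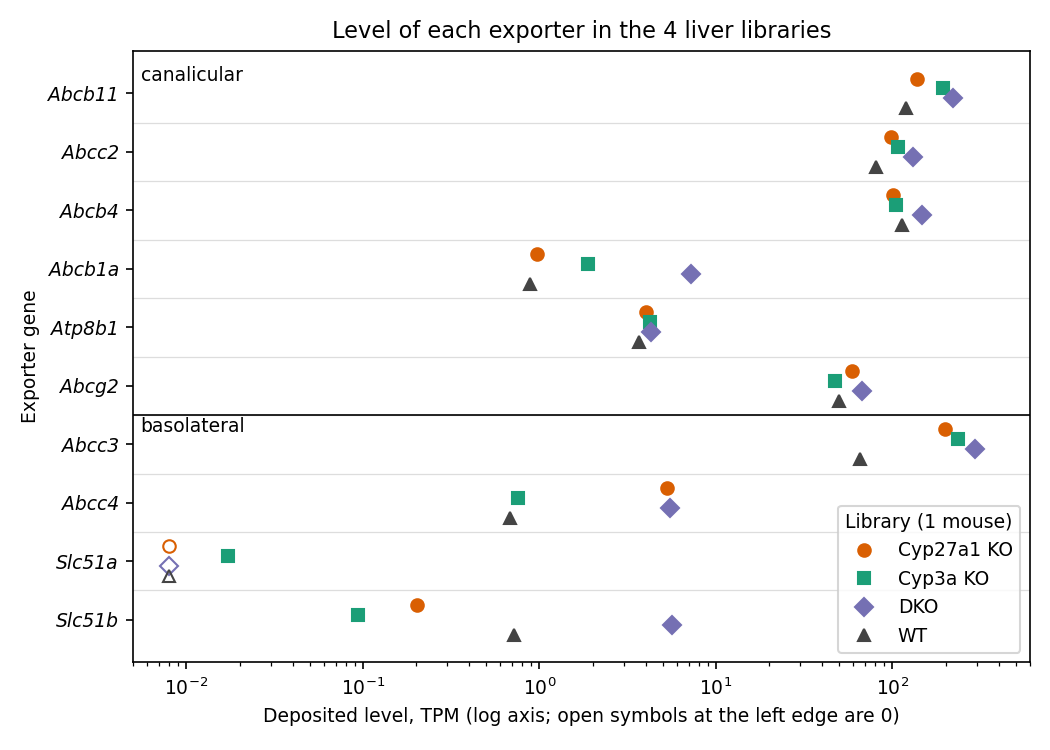
Deposited TPM (log axis) of the 10 exporters, 1 symbol per library, with the canalicular genes above the line and the basolateral genes below it; open symbols mark a value of 0. Abcc3 lies between 199 and 294 TPM in the 3 knockouts and at 65.2 TPM in WT, and Abcc4 lies at 5.28 and 5.48 TPM in Cyp27a1 KO and DKO liver.

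Among the basolateral genes, Abcc3 was higher in all 3 knockouts. It had 624 CPM in Cyp27a1 KO liver, 741 CPM in Cyp3a KO liver and 827 CPM in DKO liver, against 211 CPM in WT. The 3 knockout values lie close together and all stand far above the WT value. The ratios to WT were 2.95 (2.89 to 3.02), 3.51 (3.43 to 3.59) and 3.92 (3.83 to 4.00) in that order. Only 112, 70 and 200 of the 11743 genes had a higher log2 fold in those comparisons. In bulk liver, a larger number of cells of one type and more RNA per cell cannot be told apart, here or in any result that follows.

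Abcc4 (chr14:118482692-118706219, minus strand), a carrier that returns bile acids to blood together with glutathione, was higher in both libraries that lack Cyp27a1. It had 22.7 CPM (21.3 to 24.0) in Cyp27a1 KO liver, 3.40 CPM (2.90 to 3.95) in Cyp3a KO liver and 20.7 CPM (19.5 to 21.9) in DKO liver, against 3.24 CPM (2.74 to 3.80) in WT. The Cyp3a KO and WT intervals overlap, and the other two libraries stand far above both. Abcc4 was 6.99-fold (5.90 to 8.34) and 6.38-fold (5.38 to 7.62) higher than WT in Cyp27a1 KO and DKO liver, against a ratio of 1.05 (0.837 to 1.31) in Cyp3a KO liver. Its log2 fold was exceeded by 32 of 11743 genes in Cyp27a1 KO liver. Few of its reads could be shared with another gene: 0.220% of the 31-base words of its transcripts occur in transcripts of another gene. For Abcc3 no such word was shared.

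The subunits of the heteromeric carrier were scarce. Slc51b (chr9:65412714-65422955, minus strand), the beta subunit that brings the alpha subunit to the membrane, had 4 counts in Cyp27a1 KO liver, 2 in Cyp3a KO liver and 107 in DKO liver, against 15 in WT. The DKO library alone exceeded WT, and both single knockouts were below it. Its CPM was 6.14-fold higher (3.56 to 11.4) in DKO liver than in WT, 4.01-fold lower (1.28 to 16.6) in Cyp27a1 KO liver, and 8.05-fold lower (1.87 to 72.6) in Cyp3a KO liver. These ratios rest on 15 counts in WT and on a mean of 0.604 CPM, under the filter, so no call was made. Rasl12, which overlaps Slc51b on the other strand, had 5, 3 and 2 counts in the knockouts in the same order and 0 in WT. Slc51a (chr16:32474504-32487879, minus strand), the alpha subunit, had 1 count in Cyp3a KO liver and 0 in the other libraries, and 0 counts allow up to 0.0602 CPM in Cyp27a1 KO liver, 0.0554 CPM in DKO liver and 0.0643 CPM in WT. The DKO thus held 107 counts of the beta subunit beside 0 of its partner.

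**Figure D2:**
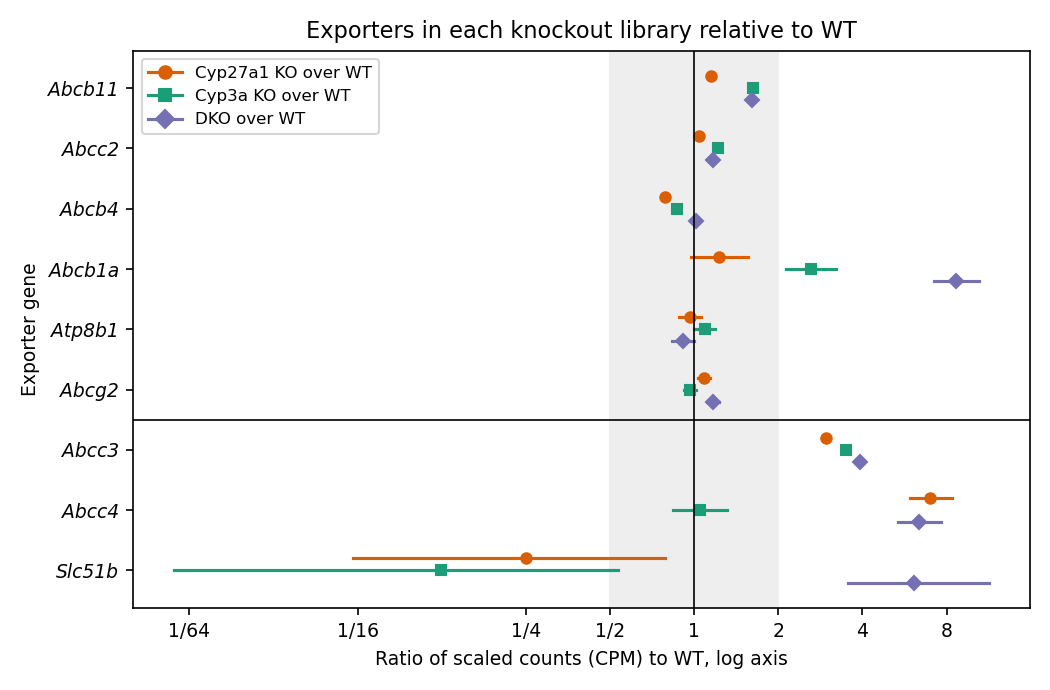
Ratio of CPM to WT (log axis) for 9 exporters in Cyp27a1 KO, Cyp3a KO and DKO liver, with exact 95% counting intervals as horizontal bars and the band between 1/2 and 2 shaded; Slc51a is left out because its WT count is 0. Abcc3, Abcc4, Abcb1a and Slc51b leave the band in at least 1 knockout, and the other 5 canalicular genes stay inside it.

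On the canalicular side, the main bile acid pump was moderately higher where Cyp3a was missing. Abcb11 had 475 CPM in Cyp27a1 KO liver, 673 CPM in Cyp3a KO liver and 667 CPM in DKO liver, against 413 CPM in WT. Its ratios to WT were 1.15 (1.13 to 1.17), 1.63 (1.60 to 1.66) and 1.62 (1.59 to 1.64), under the 2-fold rule. The Cyp3a KO and the DKO stood at about the same level, both above the Cyp27a1 KO. Abcc2 (chr19:43782192-43840740, plus strand), which exports conjugated bilirubin and glutathione conjugates as well as bile acid conjugates, had 549 CPM in Cyp27a1 KO liver, 638 CPM in Cyp3a KO liver and 616 CPM in DKO liver, against 525 CPM in WT, with ratios between 1.04 and 1.21.

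The genes that act on canalicular phospholipid, and Abcg2, stayed under the 2-fold rule. Abcb4 (chr5:8893717-8959231, plus strand), the phosphatidylcholine floppase, had 287 CPM in Cyp27a1 KO liver, 317 CPM in Cyp3a KO liver and 370.1 CPM in DKO liver, against 364 CPM in WT. Each single knockout was below WT, with ratios of 0.787 (0.769 to 0.804) and 0.871 (0.852 to 0.890), whereas the DKO ratio was 1.02 (0.995 to 1.04). Atp8b1, the flippase that keeps aminophospholipids on the inner leaflet (chromosome 18), had 19.5, 22.0 and 18.4 CPM in Cyp27a1 KO, Cyp3a KO and DKO liver, against 20.2 CPM in WT. Abcg2 (chr6:58584523-58695676, plus strand), an exporter of sulfated steroids and xenobiotics, had 73.2, 65.1 and 78.9 CPM in the same knockouts and 67.5 CPM in WT. No ratio to WT of Atp8b1 or Abcg2 was above 1.17 or below 0.911.

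Abcb1a (chr5:8660077-8748575, plus strand), a multidrug P-glycoprotein of the canaliculus that can carry some bile acids, was the canalicular exception. It had 3.37 CPM (2.88 to 3.92) in Cyp27a1 KO liver, 7.19 CPM (6.47 to 7.97) in Cyp3a KO liver and 23.7 CPM (22.4 to 25.0) in DKO liver, against 2.75 CPM (2.29 to 3.26) in WT. The DKO stood highest, the Cyp3a KO next, and the Cyp27a1 KO and WT intervals overlap. Its ratios to WT were 1.23 (0.971 to 1.56), 2.62 (2.13 to 3.23) and 8.63 (7.19 to 10.4). On deposited TPM its log2 fold in Cyp3a KO liver was 0.78 in place of 1.24, under the 2-fold rule with the pseudocount of 0.5, while the plain TPM ratio was 2.13. The counts behind 1 TPM of Abcb1a were 1.27, 1.30 and 1.36 times the WT figure in the 3 knockouts once scaled per library, whereas for Atp8b1 they were equal. Smaller shifts were seen for Abcb11 (1.11, 1.06 and 1.12), Abcc3 (1.09, 1.03 and 1.12) and Abcg2 (1.03, 1.08 and 1.11). Abcc2 was below 1, and Abcb4 and Abcc4 were near 1. Of the 31-base words of Abcb1a transcripts, 28.2% occur in another gene, 21.7% in its near copy Abcb1b on the same chromosome. Abcb1b had 68, 69 and 30 counts in Cyp27a1 KO, Cyp3a KO and DKO liver and 80 in WT. The pair summed, an alternative added after the data were seen, was 1.06-fold (0.878 to 1.29), 1.92-fold (1.62 to 2.28) and 5.44-fold (4.69 to 6.32) the WT level, so the split between the copies is uncertain but their sum was still highest in DKO liver.

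Called genes were then counted on each membrane side, out of few genes. In the Cyp27a1 KO, 2 of the 2 basolateral genes past the filter and 0 of 6 canalicular genes were called higher, where 2.44% of all genes were called higher and 3.81% in either direction. In the Cyp3a KO, 1 of 2 basolateral genes and 1 of 6 canalicular genes were called higher, where 2.56% of all genes were and 4.43% were called in either direction. In the DKO, 2 of 2 and 1 of 6 were called higher, where 6.0% of all genes were and 10% were called in either direction. No exporter was called lower in any of the 3 comparisons with WT, where 1.36%, 1.86% and 4.02% of all genes were called lower. These comparisons share the WT library, and the genes were chosen with earlier results of these data known.

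The median log2 fold of the 6 canalicular genes was 0.09 in Cyp27a1 KO liver, 0.20 in Cyp3a KO liver and 0.23 in DKO liver. For all genes past the filter the median was 0.00, 0.01 and -0.01. The 2 basolateral genes past the filter had log2 folds of 1.56 and 2.63 in Cyp27a1 KO liver, 1.81 and 0.06 in Cyp3a KO liver, and 1.97 and 2.50 in DKO liver, Abcc3 first. Abcc3 was above all 6 canalicular genes in Cyp27a1 KO and Cyp3a KO liver, but below Abcb1a in DKO liver.

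**Figure D3:**
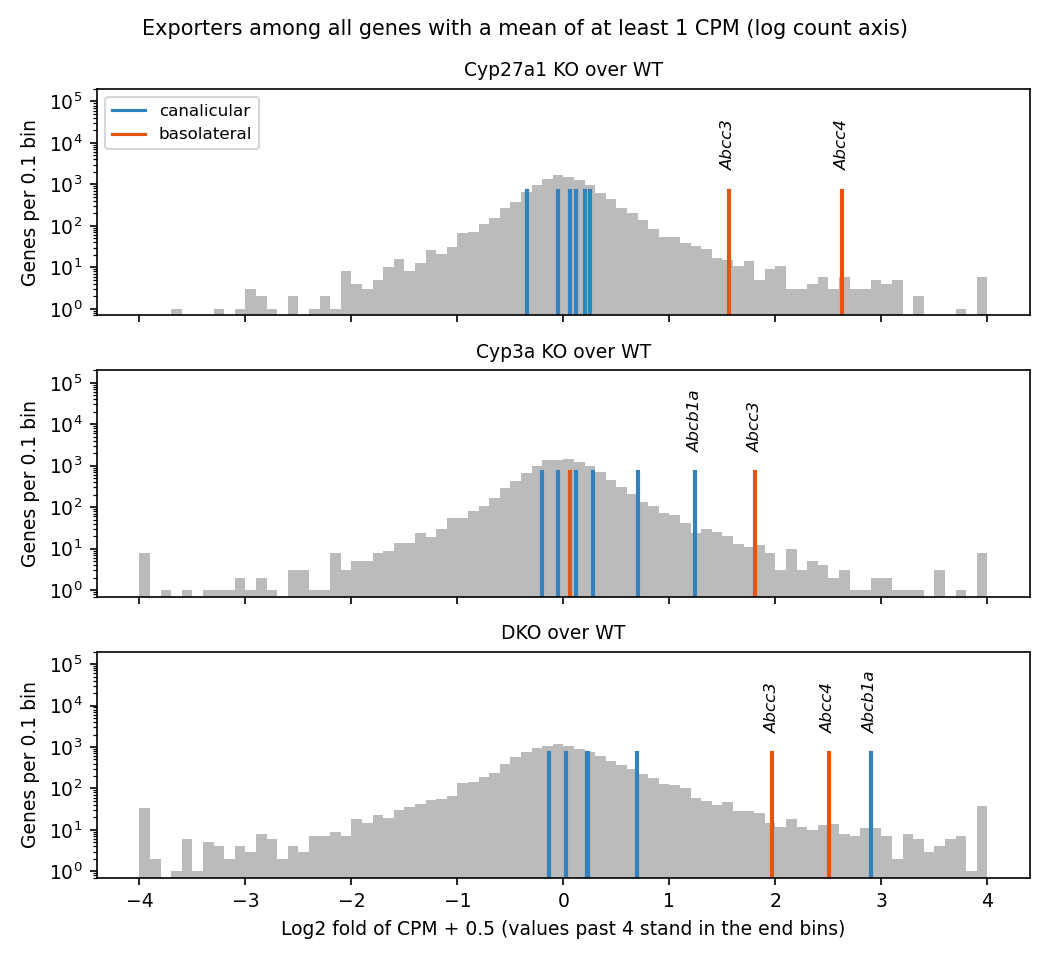
Log2 fold against WT of all 11743 genes with a mean of at least 1 CPM (grey bars, log count axis), with the 8 exporters past the filter as vertical lines, canalicular in blue and basolateral in orange. Abcc3 lies at 1.56, 1.81 and 1.97 in the 3 knockouts, while 5 of the 6 canalicular genes lie between -0.35 and 0.70.

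Summed in TPM, the 4 basolateral genes reached 205 TPM in Cyp27a1 KO liver, 237 TPM in Cyp3a KO liver and 305 TPM in DKO liver, against 66.6 TPM in WT. The 6 canalicular genes reached 400.5, 459 and 577 TPM in the same knockouts, against 367 TPM in WT. The basolateral sum was thus 3.07, 3.56 and 4.58 times its WT value, and the canalicular sum 1.09, 1.25 and 1.57 times. Basolateral genes made up 33.8%, 34.1% and 34.6% of exporter TPM in the knockouts and 15.4% in WT. The 3 knockout shares lie within 1 percentage point of each other. Abcc3 supplied between 96.4% and 99.6% of the basolateral sum in every library, so the share follows that gene. Deposited TPM moved the median of all genes by 0.18, 0.09 and 0.33 on the log2 scale in the 3 comparisons with WT, which the ratios of single sums include and the shares do not.

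**Figure D4:**
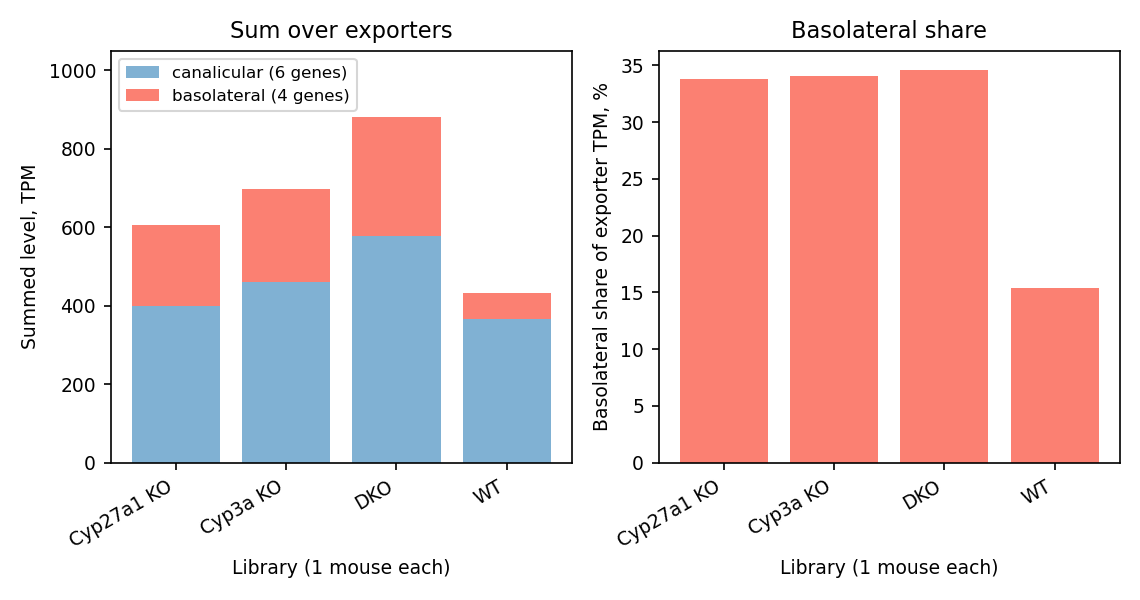
Left, summed TPM of the 6 canalicular and 4 basolateral exporters in each library; right, the basolateral share of that total in percent. The share is 33.8%, 34.1% and 34.6% in Cyp27a1 KO, Cyp3a KO and DKO liver and 15.4% in WT.

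Each loss could be measured in 2 pairs of libraries that have no library in common. In DKO against Cyp3a KO liver, which is loss of Cyp27a1 without Cyp3a, 4.02% of all genes were called higher, 2.70% lower and 6.72% in either direction. Abcc4 and Abcb1a were the 2 exporters called, both higher, and Abcc4 was 6.09-fold higher (5.18 to 7.20), near the 6.99-fold of the pair with Cyp3a. In DKO against Cyp27a1 KO liver, which is loss of Cyp3a without Cyp27a1, 2.84% of all genes were called higher, 2.59% lower and 5.42% in either direction. Abcb1a was the 1 exporter called, and the Abcc4 ratio was 0.913 (0.840 to 0.992). Abcc4 therefore differed with Cyp27a1 in both pairs and stayed under the 2-fold rule with Cyp3a in both. Abcb11 had a ratio of 1.40 (1.38 to 1.43) for loss of Cyp3a without Cyp27a1 and 0.991 (0.977 to 1.01) for loss of Cyp27a1 without Cyp3a.

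Abcc3 and Abcb1a departed in opposite directions from the sum of the single knockouts. For Abcc3 the DKO was 1.33-fold (1.31 to 1.35) the Cyp27a1 KO and 1.12-fold (1.10 to 1.13) the Cyp3a KO. The sum of its single-knockout log2 folds was 3.37, and its DKO log2 fold was 1.97, a departure of -1.40. For Abcb1a the DKO was 7.03-fold (5.98 to 8.30) the Cyp27a1 KO and 3.30-fold (2.93 to 3.72) the Cyp3a KO. Its single-knockout log2 folds sum to 1.5, and its DKO log2 fold was 2.90, a departure of 1.40. For Abcc4 the departure was -0.19, for Abcb11 -0.21, and the median over all genes past the filter was -0.02. A departure above that of Abcb1a was found in 1.65% of genes, and one above that of Abcc3 in 98.2%. The departures have no replicate check.

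Slc51b and Abcb4 were on opposite sides of 1 on the 2 backgrounds. Slc51b was 24.6-fold higher (9.33 to 91.9) in DKO liver than in Cyp27a1 KO liver and 49.5-fold higher (13.4 to 414) than in Cyp3a KO liver, while each single knockout was below WT. With 4 and 2 counts in the single knockouts the size of these ratios is poorly fixed. Abcb4 was 1.29-fold (1.26 to 1.32) and 1.17-fold (1.14 to 1.19) higher in DKO liver than in Cyp27a1 KO and Cyp3a KO liver.

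**Figure D5:**
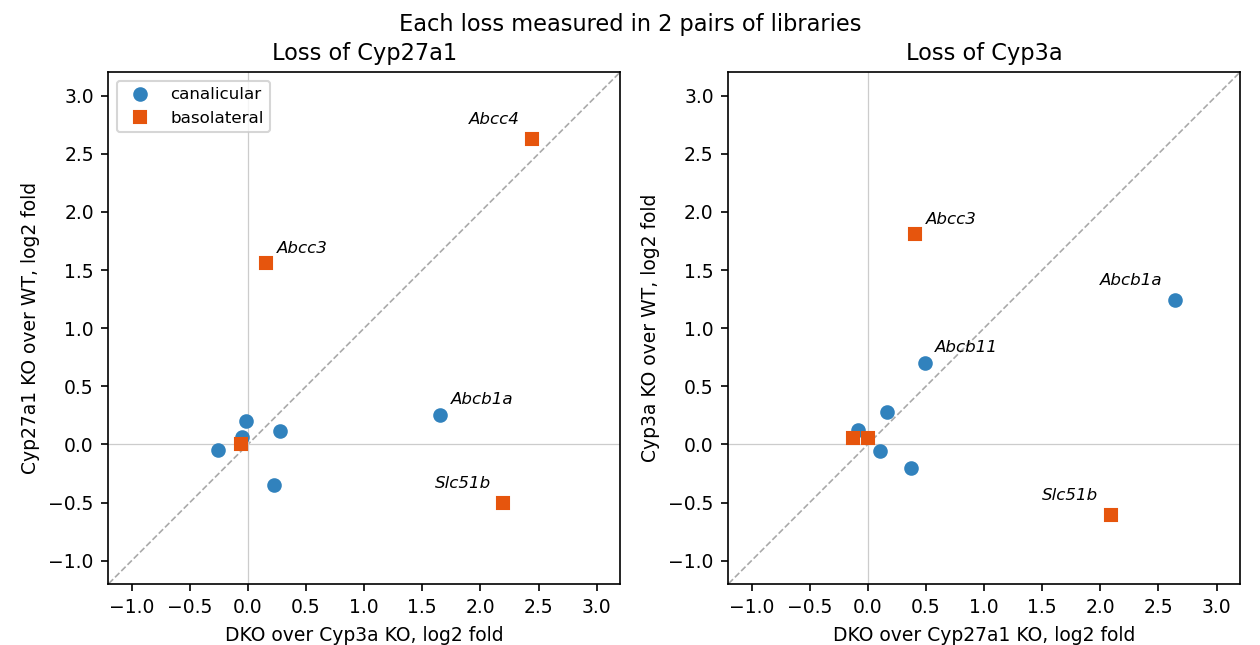
Log2 fold of each exporter for loss of Cyp27a1 (left) and loss of Cyp3a (right), with the pair that includes the DKO on the x axis and the pair that includes WT on the y axis; on the dashed line both pairs give the same fold. Abcc4 lies near the line at 2.44 and 2.63 on the left, while Abcc3 lies above the line and Abcb1a and Slc51b lie below it in both panels.

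The genes nearest to each called exporter were found by Euclidean distance over the 3 log2 folds against WT, among 8614 genes with a mean of at least 5 CPM. Only 3 folds enter, and they share the WT library. Nearest to Abcc3 were Ablim1, an actin-binding protein gene (distance 0.42), Oat, ornithine aminotransferase (0.43), and Aldh1a1, a retinal dehydrogenase (0.46). Nearest to Abcc4 were the retinoic acid hydroxylase Cyp26a1 (0.70), Wdfy1 (0.85) and the fatty acid transporter Cd36 (0.85). Near to Abcb1a were the clock gene Per3 (0.46) and the squalene epoxidase gene Sqle (0.61). On deposited TPM, the genes Sqle (to Abcb1a) and Cd36 (to Abcc4) ranked 167 and 66 in nearness, and the other 6 named here ranked between 1 and 10.

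Other transport genes were read beside the exporters, against 2.44%, 2.56% and 6.0% of all genes called higher, and 1.36%, 1.86% and 4.02% called lower, in Cyp27a1 KO, Cyp3a KO and DKO liver. Of 8 sinusoidal uptake carriers, 1 was called higher and 1 lower in each single knockout, and 1 higher and 2 lower in DKO liver. The organic anion carrier Slco1a4 had log2 folds of 1.60 in Cyp27a1 KO liver, 1.77 in Cyp3a KO liver and 2.49 in DKO liver, all against WT. Slco1a1, another organic anion carrier, had -2.12, 0.49 and -7.13, with 3893, 23944 and 105 counts in the knockouts and 15912 in WT. Slc22a7, an organic anion carrier of the basolateral membrane, had -0.91, -2.07 and -2.31 and was called lower in Cyp3a KO and DKO liver. The main bile acid uptake carrier Slc10a1 had log2 folds of 0.12, 0.27 and 0.46 and was not called. The canalicular sterol exporters Abcg5 and Abcg8 were both called higher in DKO liver, with log2 folds of 1.60 and 1.52, and neither was called in a single knockout. Of 15 flippase partners, scaffold and trafficking genes of the canaliculus, 1, 1 and 2 were called higher in Cyp27a1 KO, Cyp3a KO and DKO liver and 0 lower, beside the same shares over all genes. Pdzk1, a PDZ scaffold of apical transporters, had log2 folds of 1.03, 1.12 and 1.19, and Myo5b, a motor for apical recycling whose loss causes cholestasis in humans, had 0.69, 0.78 and 1.23. Tmem30a, the partner subunit of Atp8b1, had log2 folds of -0.00, -0.02 and -0.25 on counts and -0.01, -0.03 and -0.23 on TPM recentred on the median gene.

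Of 14 measured receptors and factors that regulate exporters, 1 was called higher and 1 lower in each single knockout, and 1 higher in DKO liver. In Cyp3a KO liver these were Nr0b2 and Esrra, with log2 folds of 1.48 and -1.03. Nr0b2 was the gene called lower in Cyp27a1 KO liver, with -1.01. The same Nr0b2 calls are counted again among the FXR targets below. FXR (Nr1h4), which drives Abcb11 and the Slc51 genes, had log2 folds of -0.07, -0.30 and -0.46 in Cyp27a1 KO, Cyp3a KO and DKO liver. PXR (Nr1i2) had -0.13, -0.00 and 0.15, and CAR (Nr1i3) had -0.24, 0.08 and 0.07. NRF2 (Nfe2l2) had 0.37, 0.40 and 0.55. On TPM recentred on the median gene these 4 receptors and factors had the same signs as on counts, FXR with -0.07, -0.31 and -0.43. Ahr, the aryl hydrocarbon receptor, was called higher in Cyp27a1 KO and DKO liver, with log2 folds of 1.03 and 1.65, and had 0.82 in Cyp3a KO liver.

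Target genes of these receptors outside the exporters are read against the same shares of all genes, 2.44%, 2.56% and 6.0% called higher and 1.36%, 1.86% and 4.02% lower. Of 10 PXR and CAR targets, 7 were called higher in Cyp27a1 KO liver, 7 in Cyp3a KO liver and 8 in DKO liver, and 0 lower, with median log2 folds of 1.5, 1.93 and 2.94. Of 8 measured NRF2 targets, 2 were called higher in Cyp27a1 KO liver, 1 higher and 1 lower in Cyp3a KO liver, and 3 higher in DKO liver. Their median log2 folds were 0.46, 0.23 and 0.70. The quinone reductase gene Nqo1 had log2 folds of 1.87, 0.45 and 1.94, Ugdh, which makes UDP-glucuronate, had 1.57, 1.14 and 2.57, and the heme oxygenase gene Hmox1 had -0.48, -1.19 and -0.10. Srxn1, called higher in DKO liver, had 1.73 there and 0.21 in Cyp3a KO liver. The glutathione synthesis gene Gclc, not called, had -0.08, 0.24 and -0.58. Of 8 FXR targets, 1 was called higher and 1 lower in Cyp27a1 KO liver, 2 higher in Cyp3a KO liver and 1 higher in DKO liver. The repressor Nr0b2 had 392 counts in Cyp27a1 KO liver, 2320 in Cyp3a KO liver and 1315 in DKO liver, against 761 in WT. Pltp, a phospholipid transfer protein also driven by LXR, had 6392, 2353 and 6127 counts against 909 in WT. These lists were drawn up with earlier results of these data known, and Gsta1, Gstm1 and Gstm3 of the PXR and CAR list are also known NRF2 targets.

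Markers of other liver cells were read beside the exporters, since cholangiocytes carry Slc51 subunits and Abcc3, and endothelium carries Abcb1a and Abcg2. The shares of all genes called are those given with the transport genes. Summed cholangiocyte markers stood at 92.7, 87.6 and 132 TPM in Cyp27a1 KO, Cyp3a KO and DKO liver, against 101 TPM in WT. Of the 7 measured, 1 was called lower in each single knockout, and 1 higher and 1 lower in DKO liver. Their median log2 folds on counts were -0.33, -0.24 and -0.09 in the 3 knockouts. Sums in TPM, here and below, include the shift of all genes in deposited TPM, 0.18, 0.09 and 0.33 on the log2 scale. Slc10a2 had 1632, 750 and 4246 counts in the knockouts and 1723 in WT. It was called lower in Cyp3a KO liver and higher in DKO liver. Sox9 had 153, 330 and 147 counts against 341, and was called lower in Cyp27a1 KO and DKO liver. Krt19 had 30, 57 and 66 counts in the knockouts and 51 in WT, and Krt7 had 48, 51 and 50 against 33. Endothelial markers summed to 72.0, 59.3 and 85.0 TPM against 69.8 TPM in WT, with 0 of 8 called. On counts the endothelial medians were -0.07, -0.31 and -0.12. Kupffer cell markers summed to 212, 124 and 333 TPM against 177 TPM in WT, with 1 of 8 called lower in Cyp3a KO liver and 2 of 8 called higher in DKO liver. In the DKO against Cyp3a KO liver, a pair used for Abcc4 and Abcb1a, 6 of 8 Kupffer cell markers were called higher, where 4.02% of all genes were. Erythroid markers summed to 1047, 605 and 902 TPM against 1480.4 TPM in WT, with 1, 4 and 4 of 5 called lower. Stellate markers summed to 26.3, 36.3 and 29.0 TPM against 25.6 TPM, with 1, 1 and 0 of 7 called higher. The 8 hepatocyte markers had median log2 folds of -0.35, -0.35 and -0.52, where the medians over all genes were 0.00, 0.01 and -0.01. Of these 8, 0, 0 and 1 were called lower and 0 higher. The part of the other cell types in the values of Slc51b, Abcb1a and Abcc4 was not tested.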

How the data were processed

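Per the labels' protocols, Qiagen RNeasy columns gave RNA from livers stored in RNAlater, and TruSeq v2 libraries were sequenced. Per the submitters' processing notes, kallisto 0.43.1, HISAT2 2.0.5 and Trimmomatic 0.33 were used with mm10, no role being stated, and the annotation is not given in the sources used here. For each gene symbol the authors deposited estimated counts, which were rounded to whole numbers here, and TPM, whose columns stand in another order and were paired by title (same-title columns correlated at 0.943 to 0.972 once each gene was centred). The 1 row without a gene name (0 counts) was dropped.

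TMM factors (edgeR 4.0.16, R 4.3.3) were 0.996, 0.994, 1.08 and 0.937 in the Cyp27a1 KO, the Cyp3a KO, the DKO and WT. The pseudocount of 0.5 understates folds of low genes, while ratios carry none. Count ratios have Clopper-Pearson conditional binomial intervals and single counts exact Poisson intervals; 3 counts were the limit that a count of 0 allows, per library. Intervals cover counting error only, as each rests on single libraries. Reads carry no molecular identifiers, so duplicate reads were not told apart. Error in assigning reads to genes, as in the estimated counts, is also outside the intervals. No test across genes was possible with 1 library a genotype. Calling was tested on simulated counts that carry counting error alone, so that test says nothing about variation between animals.

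All 10 exporters were named; other genes were named from 16 lists where called against WT, at most 4 a list, beside the 3 nearest genes per called exporter, with predicted genes passed over; 1 of these nearest genes is not reported here. Receptors, Slc10a1, Tmem30a, Gclc and the cholangiocyte markers without a call were named for their role, after their values were seen. The exporters and lists were chosen with earlier results of these data known. Coordinates are from GENCODE M21 (GRCm38, the mm10 build); words of 31 bases were compared between its transcripts. Alternatives were library totals, median-of-ratios factors (DESeq2 1.42.0), deposited TPM as given and recentred on the median gene, and other filters, pseudocounts and fold rules.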

Additional observations from a re-analysis of the deposited data

Results flagged for a closer look

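A loss that pointed in opposite directions on the 2 backgrounds, beyond counting error, was found for 3 exporters; with 1 library per genotype the difference was not tested. Slc51b had log2 folds of 2.20 in DKO liver against Cyp3a KO liver and -0.50 in Cyp27a1 KO liver against WT, and of 2.09 in DKO liver against Cyp27a1 KO liver and -0.61 in Cyp3a KO liver against WT. Abcb4 had log2 folds of 0.22 in DKO liver against Cyp3a KO liver and -0.35 in Cyp27a1 KO liver against WT, and of 0.37 in DKO liver against Cyp27a1 KO liver and -0.20 in Cyp3a KO liver against WT. Abcc2 had log2 folds of -0.051 in DKO liver against Cyp3a KO liver and 0.063 in Cyp27a1 KO liver against WT, close to no difference in either pair, and on TPM recentred on the median gene they were 0.055 and 0.095.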

How the results depend on the processing

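No paired analysis was possible because each genotype has 1 library. No called exporter changed sign under the scalings, tables and pseudocounts tried. Of 305 single log2 folds under alternatives, 194 lay within the counting interval of the plain count ratio. That interval carries no pseudocount, so for low genes such as Slc51b the main log2 fold can itself lie outside it. For Slc51a the interval was too wide to exclude any value tried. The 194 of 305 is therefore no measure of stability. Library totals and median-of-ratios factors gave the same calls of exporters as TMM. With a 4-fold rule the called exporters were 1 in Cyp27a1 KO liver against WT (main 2), 0 in Cyp3a KO liver against WT (main 2) and 1 in DKO liver against Cyp3a KO liver (main 2), and in DKO liver against WT 2 (main 3), as Abcc3 was lost. With a 1.5-fold rule Abcb11 was called higher too in Cyp3a KO and DKO liver against WT, for 3 and 4 exporters. With a pseudocount of 2, 1 was called in Cyp3a KO liver against WT, as Abcb1a was lost. With no filter, on deposited TPM and on TPM recentred on the median gene, 2 were called in DKO liver against Cyp27a1 KO liver (main 1), since Slc51b then passes. It also makes 4 in DKO liver against WT (main 3) and 3 in DKO liver against Cyp3a KO liver (main 2). On TPM it is also called lower in Cyp3a KO liver, on 2 counts against 15, while Abcb1a is not called there. The basolateral share, 33.8%, 34.1%, 34.6% and 15.4% in Cyp27a1 KO, Cyp3a KO, DKO and WT liver, was 31.5%, 30.2%, 32.4% and 13.4% on CPM, 46.4%, 44.1%, 46.5% and 25.0% with Abcb11 and Abcc2 as the canalicular side, and 1.35%, 0.188%, 1.89% and 0.380% without Abcc3, so without that gene the Cyp3a KO stands below WT.

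Over all genes, the calls against WT were 447, 520 and 1177 in Cyp27a1 KO, Cyp3a KO and DKO liver, and 637 and 789 in DKO liver against Cyp27a1 KO and Cyp3a KO liver. They were 1392, 1532, 2831, 1703 and 1999 with a 1.5-fold rule and 88, 89, 311, 170 and 192 with a 4-fold rule. A mean of at least 5 CPM left 769, 407 and 504 in the last 3 comparisons, and a pseudocount of 2 left 293 and 335 in the first 2. The share called higher was 64.2%, 57.9%, 59.9%, 52.3% and 59.8%, against 77.6%, 67.4%, 82.7%, 65.6% and 77.7% on deposited TPM and 63.9%, 58.0%, 60.2%, 51.1% and 59.8% on TPM recentred on the median gene, so the shift of the whole table accounts for most of that gap. Atp8b1 in DKO liver against WT likewise had -0.13 on counts, 0.20 on TPM and -0.13 on recentred TPM.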
